A study of Mus musculus with 12 samples.

Results

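The transcriptome of normal thymocytes was described from the 4 arrays labelled wild type, out of 12 arrays of mouse thymus cells. These arrays held cell suspensions from the thymus of C57Bl/6 mice aged 2 months, taken on ice, dissociated mechanically in cold PBS and pelleted before lysis. No sort or gate is named, so the suspension can hold every cell type that mechanical dissociation frees. The other 8 arrays held leukemic cells and entered no value below. Total RNA (5.0 µg per target) was labelled with biotin and hybridised to Affymetrix arrays, on which each transcript is read by a probe set near its 3' end. The titles of 3 arrays carry a number of 4 digits and the title of the 4th, called array 4 here, carries none. Nothing else in the labels says whether the arrays came from separate mice, so the spread between them may be technical in part. Levels of sex-linked genes, which differed between arrays, are given below.

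The thymus is where T cells are made. Progenitors that carry neither CD4 nor CD8 (double-negative cells) rearrange their T-cell receptor genes with the RAG recombinase, signal through the pre-T-cell receptor, divide, and become double-positive cells that carry both coreceptors. Double-positive cells make up most of a young thymus. They rearrange the alpha chain, and the few that are positively selected become CD4 or CD8 single-positive cells and leave for the blood.

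The ranking covered 12422 probe sets, which is the table of 12488 without 66 Affymetrix controls. Levels are the mean log2 intensity over the 4 arrays, with the SD. A control level was set at the 95th percentile of 19 control probe sets for transcripts of Bacillus subtilis (15) and yeast (4), and lay at 5.34, an intensity of 40.6. Of the ranked probe sets, 7857 (63.3%) had a mean above it, and 7384 (59.4%) lay above the control level of their own array on all 4 arrays. A gene was read by its brightest probe set, and 5920 of 8251 genes (71.7%) were above the control level. The median level was 6.12, with a 10th percentile of 3.57, a 90th of 8.64 and a 99th of 11.03. The 10 brightest probe sets held 4.21% of the summed intensity, the brightest 100 held 19.8% and the brightest 1000 held 52.0%. Probe sets differ in affinity, so a rank is one of brightness, and a brighter gene is not shown to be more abundant than a dimmer one.

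**Figure D1:**
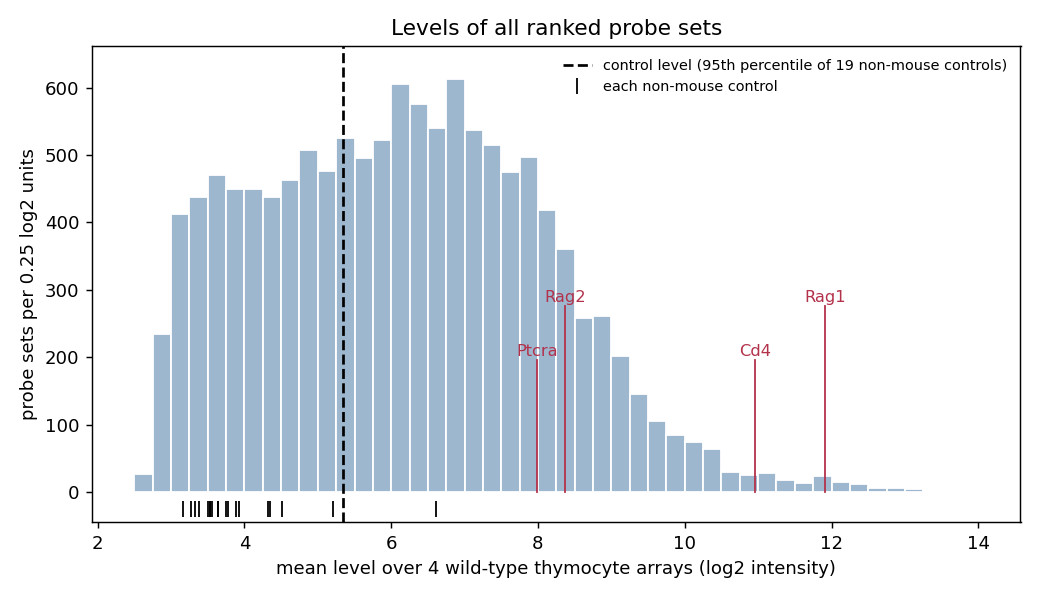
Histogram of the mean log2 intensity of the 12422 ranked probe sets over the 4 thymocyte arrays in steps of 0.25, with the 19 non-mouse controls as ticks and the control level of 5.34 as a dashed line. Rag1 (11.91) and Cd4 (10.96) lie in the sparse bright end, Rag2 (8.37) and Ptcra (7.99) on the bright side of the main mass, and 1 control at 6.60 lies above the dashed line.

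The control level is a low bar. The 19 controls ranged from 3.16 to 6.60, and the level fell between the highest of them and the next at 5.20. Of 15 measured genes from a list of liver, brain, eye and pancreas genes, 10 (66.7%) lay above it, close to the 71.7% of all genes. The brightest was Mbp, the myelin basic protein gene, at 8.53 ± 0.23 (SD, n = 4). Next came Cyp2e1, a liver cytochrome, at 7.07 ± 0.23, Cela1, a pancreatic elastase gene, at 7.04 ± 0.13, and Ins2, an insulin gene of pancreatic beta cells, at 6.91 ± 0.14. Whether cells of the suspension express any of these genes was not tested. A level above the control level is not read as expression here. Counts of list members above it, here and below, stand beside the 71.7% of all genes. A count near that share shows nothing particular to a list. The genes nearest to the boundary were Sry, Ppp3cc, Cnn1 and Tg at 5.35 and Ppp2r2a, Apba2, Rcn2 and Stab1 at 5.34.

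Different probe sets of a gene often gave different levels. Among 2073 genes with several probe sets, the median gap between the brightest and the dimmest was 1.72 log2 units, and 903 genes had probe sets on both sides of the control level. The 16 probe sets assigned to Ighm, the immunoglobulin mu chain, ran from 3.28 to 10.96. Snrpb, Rps4x, Rps24, Naca and Myb also had some of the widest gaps, so a low value of 1 probe set does not show that a gene is silent.

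Of the markers of thymocytes, Rag1 and Cd4 were among the brightest genes, and Rag2 and Ptcra were dimmer. Rag1, the catalytic subunit of the RAG recombinase, read 11.85, 11.98, 11.83 and 11.99 on arrays 1 to 4, with a mean of 11.91 ± 0.08 (n = 4) and rank 26 of 8251 genes. A weaker probe set of Rag1, whose name marks possible cross-hybridization, read 7.38. Rag2, the partner subunit, read 8.57, 8.27, 8.42 and 8.21 (mean 8.37 ± 0.16, rank 1254). Cd4, the coreceptor for MHC class II, read 11.13, 11.02, 10.90 and 10.80 (mean 10.96 ± 0.14, rank 76). Ptcra, the invariant alpha chain of the pre-T-cell receptor, read 8.17, 7.93, 7.96 and 7.89 (mean 7.99 ± 0.12, rank 1786). All 4 markers lay far above the control level on every array, and their arrays differed by 0.16 to 0.37 log2 units between highest and lowest. Rag2 and Ptcra lay below Mbp, the brightest gene of the list of unrelated tissues, at 8.53.

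The promoters of a few genes are shown, from 250 bases before to 50 bases after the RefSeq start site in GRCm38.p6. They give the regulatory context of the marker Rag1, of 3 of the brightest ribosomal protein genes, each highest on array 4, and of Xist. Xist had the largest spread. The promoters were read for 4 motifs on both strands, the TATA box TATAAA, the CCAAT box CCAAT, the GC box GGGCGG and the ETS site CCGGAAG. None of these motifs contains another. Rps18 and Rpl19 were chosen as bright genes with an ETS site, and Rplp0 as one with a TATA box. Those hits were therefore fixed by the choice. The marker Ptcra was read too, held none of the 4 motifs and is not shown. Capitals mark the motifs, and a motif on the strand opposite to the gene appears as its reverse complement. The 5 were chr2:101649483-101649782 (minus strand) for Rag1, chr17:33955616-33955915 (minus) for Rps18, chr11:98026460-98026759 (plus) for Rpl19, chr5:115559217-115559516 (plus) for Rplp0 and chrX:103483184-103483483 (minus) for Xist.
Rag1: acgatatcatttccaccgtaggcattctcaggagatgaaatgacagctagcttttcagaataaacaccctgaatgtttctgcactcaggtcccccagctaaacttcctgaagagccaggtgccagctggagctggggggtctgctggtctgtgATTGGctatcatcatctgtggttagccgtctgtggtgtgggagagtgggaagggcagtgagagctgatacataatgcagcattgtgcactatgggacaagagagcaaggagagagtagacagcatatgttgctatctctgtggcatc
Rps18: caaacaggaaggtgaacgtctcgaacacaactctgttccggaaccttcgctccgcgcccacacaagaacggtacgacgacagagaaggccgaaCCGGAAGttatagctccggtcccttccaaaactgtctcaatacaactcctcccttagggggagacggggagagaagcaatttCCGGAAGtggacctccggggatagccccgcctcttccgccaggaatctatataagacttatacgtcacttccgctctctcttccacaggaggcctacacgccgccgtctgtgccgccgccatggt
Rpl19: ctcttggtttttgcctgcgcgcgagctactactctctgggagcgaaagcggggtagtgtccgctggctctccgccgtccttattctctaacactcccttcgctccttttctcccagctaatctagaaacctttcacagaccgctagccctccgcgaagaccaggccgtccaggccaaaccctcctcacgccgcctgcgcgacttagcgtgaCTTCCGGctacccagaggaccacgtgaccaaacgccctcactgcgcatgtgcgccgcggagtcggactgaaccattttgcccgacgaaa
Rplp0: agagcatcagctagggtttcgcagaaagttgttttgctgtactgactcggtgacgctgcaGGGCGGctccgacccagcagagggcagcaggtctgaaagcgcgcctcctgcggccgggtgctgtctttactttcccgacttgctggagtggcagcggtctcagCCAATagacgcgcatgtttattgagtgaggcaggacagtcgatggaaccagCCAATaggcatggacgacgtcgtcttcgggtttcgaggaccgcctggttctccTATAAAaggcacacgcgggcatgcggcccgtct
Xist: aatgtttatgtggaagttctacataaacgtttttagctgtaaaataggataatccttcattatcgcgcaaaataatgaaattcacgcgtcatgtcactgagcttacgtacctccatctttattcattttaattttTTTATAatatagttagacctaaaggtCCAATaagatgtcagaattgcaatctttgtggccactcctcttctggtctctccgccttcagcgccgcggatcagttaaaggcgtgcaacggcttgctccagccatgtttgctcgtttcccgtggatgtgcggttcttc
The Rag1 window held 1 reversed CCAAT box that begins 97 bases before the start. Rps18 held ETS sites at 157 and 75 bases before the start, and Rpl19 held 1 reversed ETS site at 39 bases before it. Rplp0 held CCAAT boxes at 87 and 36 bases before the start, a GC box at 190 bases before it and a TATAAA 18 bases after it. Xist held a CCAAT box at 89 bases before the start and a reversed TATAAA at 115 bases before it. Over all 32851 promoters of the RefSeq table, TATAAA occurred in 13.6%, CCAAT in 37.4%, GGGCGG in 35.7% and CCGGAAG in 8.86%. Among the 6572 measured genes with a promoter, the shares were 12.2%, 42.5%, 63.1% and 17.1%, so GGGCGG and CCGGAAG were more common there. Such matches describe the letters and show no binding.

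The recombinase and pre-T-cell receptor list was above the control level throughout, with 9 of 9 measured members and a median level of 7.99. Dntt, the terminal transferase that adds bases at V(D)J junctions, was the next brightest after Rag1 at 11.70 ± 0.05. Of its arrays, array 4 was highest at 11.77 and array 1 lowest at 11.66. Xrcc6, a subunit of the Ku end-joining complex, read 8.95 ± 0.12, and its partner Xrcc5 was the dimmest member at 5.89 ± 0.11. Vpreb1 and Igll1, which form the surrogate light chain of pre-B cells, read 6.71 and 6.66, below the liver gene Cyp2e1 and the pancreatic gene Ins2.

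Genes of the double-positive stage were bright. All 16 measured members were above the control level, against 71.7% of all genes, and their median of 9.70 stood at the 96.2nd percentile of genes. Cd8b1 and Cd8a, the chains of the CD8 coreceptor, read 12.07 ± 0.06 and 11.58 ± 0.08. Satb1, a chromatin organiser that is abundant in thymocytes, read 11.40, 11.51, 11.64 and 11.33. Ccr9, which binds the chemokine CCL25, read 9.80 ± 0.11 and Bcl2l1, a survival gene of double-positive cells, read 9.22 ± 0.11. Cd1d1, which presents lipids to NKT cells, was the dimmest member at 7.28 ± 0.29, with array 4 lowest at 6.86 and the other arrays from 7.33 to 7.50.

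Markers of the early double-negative stage had a median level of 5.84, against 6.55 for all genes. Of 17 measured members 12 were above the control level (70.6%, against 71.7% of all genes). Below it lay Kit, the stem cell factor receptor, at 5.18 ± 0.26, Cd34 at 4.51 ± 0.21, Il2ra, the CD25 chain, at 4.49 ± 0.26, Cd44 at 3.85 ± 0.13 and Meis1 at 3.14 ± 0.04. Other genes of early progenitors lay above it, with Flt3 at 7.73, Spi1 at 6.39, Lmo2 at 6.27, Hhex at 5.88 and Lyl1 at 5.77. The brightest members were Notch1, the receptor that commits progenitors to the T lineage, at 9.39 ± 0.23, Sox13 at 8.59 ± 0.08 and Notch3 at 8.03 ± 0.08. Notch1 was highest on array 1 (9.63) and lowest on array 4 (9.14). Il2ra read 4.86 on array 4 and 4.32 to 4.43 on the others, all below the control level. In a mixed suspension, fewer cells of a type and less RNA per cell cannot be told apart.

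Genes that mark mature single-positive cells showed a larger spread between arrays. Of 14 measured members 12 were above the control level (85.7%, against 71.7% of all genes), and the median level was 7.89. Of the 12, 6 were among the 592 of 5920 genes above the control level with the largest SD. The MHC class I heavy chains H2-K1 (11.12, 10.91, 10.82 and 10.41) and H2-D1 (11.03, 10.78, 10.54 and 10.56) were the brightest, both highest on array 1. The names of both probe sets mark possible cross-hybridization. Signal shared between them cannot be told apart, so they may not count as separate members. Cd27, a costimulatory receptor, read 10.25 ± 0.12 and Cd52 read 10.04 ± 0.14. Il7r, the interleukin-7 receptor alpha chain that returns with maturation, read 6.18, 5.88, 5.63 and 5.24. Bcl2, which protects mature thymocytes from death, read 8.89, 8.74, 8.29 and 8.46. Both Il7r and Bcl2 were highest on array 1. S1pr1, the receptor that lets mature cells leave the thymus, was below the control level at 4.16 ± 0.17, as was Ms4a6b at 4.74 ± 0.32. The probe set of Ms4a6b read 5.20 on array 1 and 4.49 to 4.69 on the others.

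The receptor complex and its proximal signalling genes were bright, with 22 of 23 measured members above the control level and a median of 9.40. Thy1, a surface protein of all thymocytes, read 12.17 ± 0.09, and Cd3e, Cd3g and Cd3d, chains of the CD3 complex, read 11.18 ± 0.07, 10.42 ± 0.21 and 9.59 ± 0.11. Zap70, the kinase recruited to the phosphorylated receptor, read 11.05, 10.94, 10.93 and 10.62. The zeta chain Cd247 read 8.47 ± 0.08. Cd28, the costimulatory receptor, read 9.02, 8.83, 8.83 and 7.97, with array 4 the lowest, and Fyn, a Src-family kinase, read 8.27, 7.94, 7.86 and 7.28. The adaptor Nck1 was the member below the control level, at 3.74 ± 0.14.

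T-cell receptor segments had 12 probe sets, of which 11 were above the control level, as were 63.3% of all ranked probe sets. A probe set named for the beta segment Trbv1 had rank 2 of all genes at 13.52 ± 0.04, and another for Trbv1 read 9.77 ± 0.17. The name of the first marks possible cross-hybridization, so reads of other beta transcripts cannot be told apart from it. The alpha segment Trav9d-3 read 12.08, 11.95, 12.07 and 11.55 on its brightest probe set. The gamma segments were the ones that varied most between arrays. Trgv4 read 8.49, 8.23, 7.65 and 8.57, and Trgv1 read 8.14, 8.02, 7.39 and 8.07. Array 3 was the lowest for both, 0.79 and 0.69 log2 units below the mean of the other arrays. These gamma segments were singled out after their values were seen. No probe set for a delta segment was among those with 1 gene name.

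**Figure D2:**
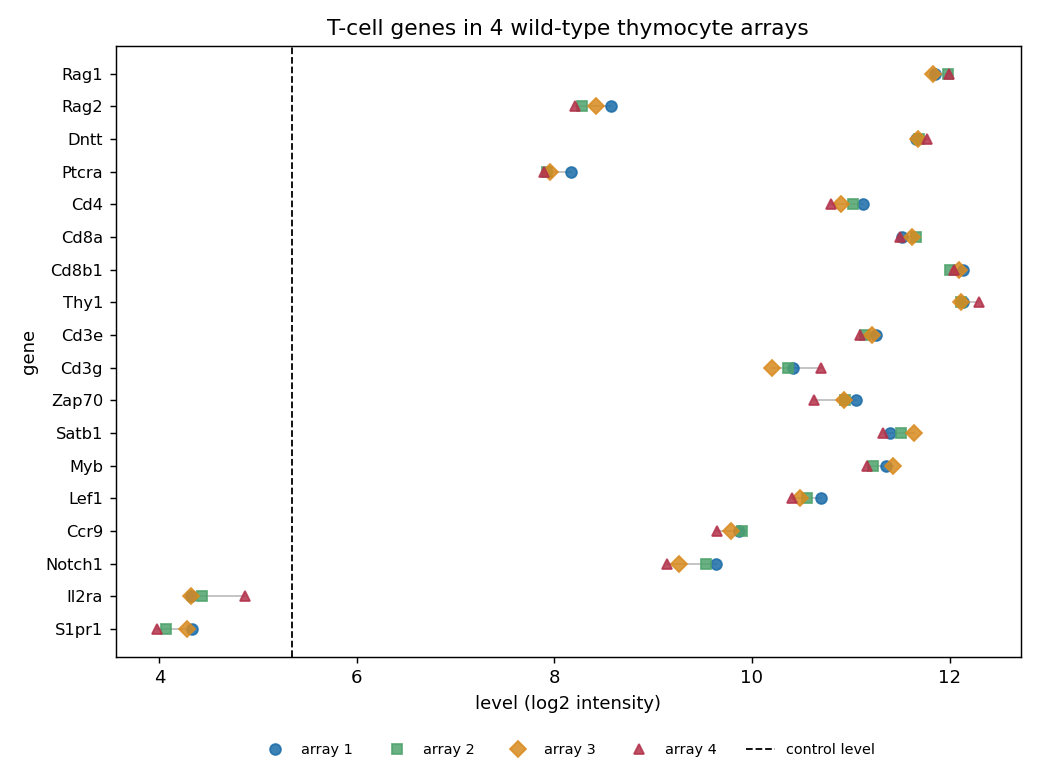
Log2 intensity of T-cell genes on each of the 4 thymocyte arrays, with 1 symbol per array and the control level of 5.34 as a dashed line. Coreceptor, CD3 and recombinase genes lie between about 8 and 12.3 with the arrays close together, while Il2ra and S1pr1 lie below the control level.

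Transcription factors of the lineage were all above the control level, 27 of 27 measured, with a median of 8.50. After Satb1, the brightest were Myb, needed for double-positive survival, at 11.29 ± 0.12, Cbfb, the partner of RUNX proteins, at 10.79 ± 0.22, and Lef1, a partner of beta-catenin, at 10.54 ± 0.12. Gata3, the CD4 lineage factor, read 7.88 ± 0.14, Runx1 read 7.59 ± 0.13 and Zbtb7b, the ThPOK factor of CD4 commitment, read 7.17 ± 0.08. Hivep3 was the dimmest at 5.71 ± 0.06. Among receptors for chemokines and cytokines 13 of 14 were above the control level (92.9%, against 71.7% of all genes). They were led by Ccr9, Il4ra (9.17 ± 0.11), Il17ra (9.15 ± 0.06) and Ifngr1 (8.66 ± 0.10). The probe set of Tgfbr2, a receptor for TGF-beta, read 3.18 ± 0.06.

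Death and survival genes were above the control level for 17 of 18 measured members (94.4%, against 71.7% of all genes), with a median of 6.87. Bcl2l11, the BH3-only protein Bim that kills self-reactive thymocytes, read 8.86, 8.68, 8.61 and 8.16. Pdcd4 read 8.64 ± 0.16 and Mcl1 read 8.35 ± 0.07. Nr3c1, the glucocorticoid receptor that makes double-positive cells sensitive to steroids, read 5.45 ± 0.08, just above the control level. Fasl, the ligand of the Fas death receptor, read 5.08 ± 0.11, below it.

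The brightest genes were those of protein synthesis and the cytoskeleton. Of the 30 brightest, 12 were on the list of cytosolic ribosomal proteins, led by Rpl41 at 13.76 ± 0.04, Rps28 at 13.09 ± 0.05 and Rplp0 at 12.83 ± 0.11. Ly6e, a GPI-anchored protein long known as a thymocyte antigen, had rank 3 at 13.51 ± 0.05, and Eef1a1, the elongation factor that brings tRNA to the ribosome, had rank 4 at 13.38 ± 0.10. Tpt1 (12.95), the inhibitory G protein subunit Gnai2 (12.27), Tubb5 (12.05), Actg1 (11.91), Cfl1 (11.85) and Arhgdib (11.84) were also among the 30. So were Thy1, Cd8b1, Rag1, Trbv1 and Trav9d-3 of the T-cell genes and Hba-a1, an alpha globin.

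Not every ribosomal gene was bright. The list had 27 of 32 measured members above the control level and a median of 10.87, with Rps14 at 4.05 ± 0.06 and Rps15 at 4.09 ± 0.12 below it although each is part of every ribosome. Translation factors were above the control level for 23 of 26, with Eef1g at 3.17 ± 0.15 as the dimmest. In the actin and thymosin list 29 of 30 were above it, and the median was 10.14. Actb is an example of probe set choice: its control probe set for the 3' end read 13.52, 13.56, 13.64 and 12.75, while the brightest ranked probe set named Actb read 7.84 ± 0.37.

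Genes of dividing cells read at middle to high intensities. Of 35 measured DNA replication genes 33 were above the control level, with a median of 8.25. Mcm5 and Mcm7, subunits of the replicative helicase, read 10.05 ± 0.33 and 9.84 ± 0.28, and Pcna, the sliding clamp, read 9.78 ± 0.14. Ccne2, a cyclin E gene, was the dimmest at 3.41 ± 0.21. Of 32 measured mitosis genes 31 were above the control level, with a median of 8.08. Ccnb2, a mitotic cyclin, read 10.33 ± 0.23, Bub3 of the spindle checkpoint read 10.26 ± 0.07 and Cdc20, an activator of the anaphase-promoting complex, read 9.92 ± 0.28. All 23 measured histone and chromatin genes were above the control level, led by Hmgn1 at 11.04 ± 0.12, Anp32b at 10.89 ± 0.22 and H2ax at 10.36 ± 0.15, and Nasp was the dimmest at 5.83 ± 0.26.

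Genes of energy and protein turnover were broadly above the control level, where 71.7% of all genes lay. This held for 23 of 27 respiratory chain genes, led by Cox6a1 at 10.80 ± 0.22 and Cyc1 at 10.67 ± 0.05, with Cox8a at 4.02 ± 0.12 as the dimmest. It held for 14 of 15 glycolysis genes, led by Hk1 at 11.11 ± 0.14, Pkm at 10.96 ± 0.06 and Ldha at 10.89 ± 0.13, with Hk2 below at 5.19 ± 0.06. Of the proteasome list 26 of 27 were above it, led by Psma6 at 10.28 ± 0.18, and the exception was Psmc4 at 4.56 ± 0.06. Genes of MHC class I presentation were above it for 12 of 13, among them Psmb8, an immunoproteasome subunit, at 10.50 ± 0.12 and B2m, the light chain, at 10.31 ± 0.14. Calr read 3.88 ± 0.14.

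Of the interferon response genes, 12 of 19 were above the control level (63.2%, against 71.7% of all genes). After Ly6e, the brightest were Irf1 at 8.14 ± 0.19, Igtp at 8.02 ± 0.20 and Isg15 at 7.73 ± 0.21. Mx1 was the dimmest at 4.01 ± 0.24. Immediate-early, stress and heat shock genes were above it for 26 of 30, with Jund at 11.98 ± 0.06, Btg2 at 11.50 ± 0.06 and Hsp90aa1 at 10.83 ± 0.20. Fos, the classic immediate-early gene, was low at 4.07 ± 0.16, and Jun read 5.09 ± 0.04. Egr1, another immediate-early gene, read 8.66, 8.26, 8.69 and 8.40.

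Markers of other cells of the thymus were mixed, and their counts are set beside the 71.7% of all genes above the control level. The share was 70.0% for macrophages, 84.6% for dendritic cells and MHC class II and 64.3% for B cells. For macrophages 14 of 20 were above the control level (70.0%), led by the lysosomal proteases Ctsd (10.25 ± 0.13) and Ctsb (9.17 ± 0.12), by Apoe (9.36, 9.07, 8.43 and 8.56) and by the complement gene C1qc (8.63, 8.27, 7.98 and 8.24). The defining markers Adgre1 (4.92 ± 0.07), Mertk (4.20 ± 0.10) and Mrc1 (3.39 ± 0.05) lay below it. For dendritic cells and MHC class II 11 of 13 were above it, with Cd74, the invariant chain, at 10.18, 9.99, 9.61 and 9.56, and H2-Eb1 at 9.39, 9.18, 9.02 and 8.54. Flt3 at 7.73 ± 0.04 counts in this list and in the early double-negative list. For B cells 9 of 14 were above it, led by the brightest probe set of Ighm at 10.96 ± 0.12, with Cd79a, a chain of the B-cell receptor complex, at 7.42 ± 0.12 and Ms4a1, the CD20 gene, at 6.52 ± 0.11.

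For thymic epithelium 11 of 15 were above the control level, with Ctsl at 8.96 ± 0.26, Krt8 at 8.22 ± 0.16 and Aire, the regulator of self-antigens in medullary cells, at 7.06 ± 0.05. The defining genes Foxn1 (5.15 ± 0.09) and Epcam (3.57 ± 0.04) were below it, and so was Il7 (2.97 ± 0.04). Fibroblast markers were above it for 9 of 14, led by Col1a2 at 7.91 ± 0.29 and Pdgfra at 7.50 ± 0.09, with Sparc (3.27) and Vim (5.19) below. Endothelial markers were above it for 4 of 10, led by Eng at 8.46 ± 0.12, while Cdh5 (4.32) and Kdr (4.99) were below. Markers of regulatory and innate-like T cells were above it for 7 of 9, with Tnfrsf18 at 8.41 ± 0.09 and Zbtb16 at 6.40 ± 0.05, and Ctla4 read 4.39 ± 0.12. The counts were 7 of 13 for NK and cytotoxic genes, with Gzma, a granzyme, at 7.61, 7.61, 7.32 and 8.32, and 11 of 15 for granulocytes and mast cells, led by Csf3r at 8.27 ± 0.19. For adipose tissue 3 of 9 and for muscle 6 of 12 were above it, led by Lep (8.23) and Actc1 (7.45), with Adipoq (3.93) and Acta1 (4.00) below.

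Erythroid genes ranged from very bright to dim. Of 11 measured members 9 were above the control level (81.8%, against 71.7% of all genes). The median of the members, 6.15, was below the 6.55 of all genes. The alpha globin gene Hba-a1 read 12.44, 12.02, 12.66 and 11.54, rank 19 of all genes, and the beta globin gene Hbb-b2, which was not on the list, read 8.67, 7.96, 9.01 and 7.66. Both globins had the same order of arrays, with array 3 highest and array 4 lowest. Alas2, the erythroid enzyme of heme synthesis, read 7.81, 7.43, 7.71 and 7.35, with arrays 1 and 3 above arrays 2 and 4. Rhag was below the control level at 3.99 ± 0.07.

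The arrays were close to each other but not equal. Pairs correlated at 0.990 to 0.997 over all ranked probe sets, and the lowest values, 0.990, 0.992 and 0.993, were those of pairs with array 4. Among the 7857 probe sets above the control level the median SD was 0.119 log2 units, the 90th percentile was 0.224 and the 99th 0.421. An SD above 0.5 was found for 38 probe sets (0.484%). The spread depended little on level, with a median SD of 0.093 in the dimmest of 10 level bins of genes and 0.120 in the brightest. The root mean square difference of an array from the mean of the other 3 was 0.169 for array 1, 0.118 for array 2, 0.162 for array 3 and 0.228 for array 4. Array 4 accounted for 46.5% of the summed squared deviation from the probe set means, and the first principal component, with 64.6% of the variance, weighted array 4 at 0.84 and array 1 at -0.47. The control level was 5.55 on array 4 and 5.20 to 5.33 on the others. The difference between the 3' and 5' controls of Gapdh was -0.04 on array 4 and -0.16 to -0.07 on the others, and that of Actb was 0.41 against 0.36 to 0.59. Whether these values bear on the lists below was not tested.

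**Figure D3:**
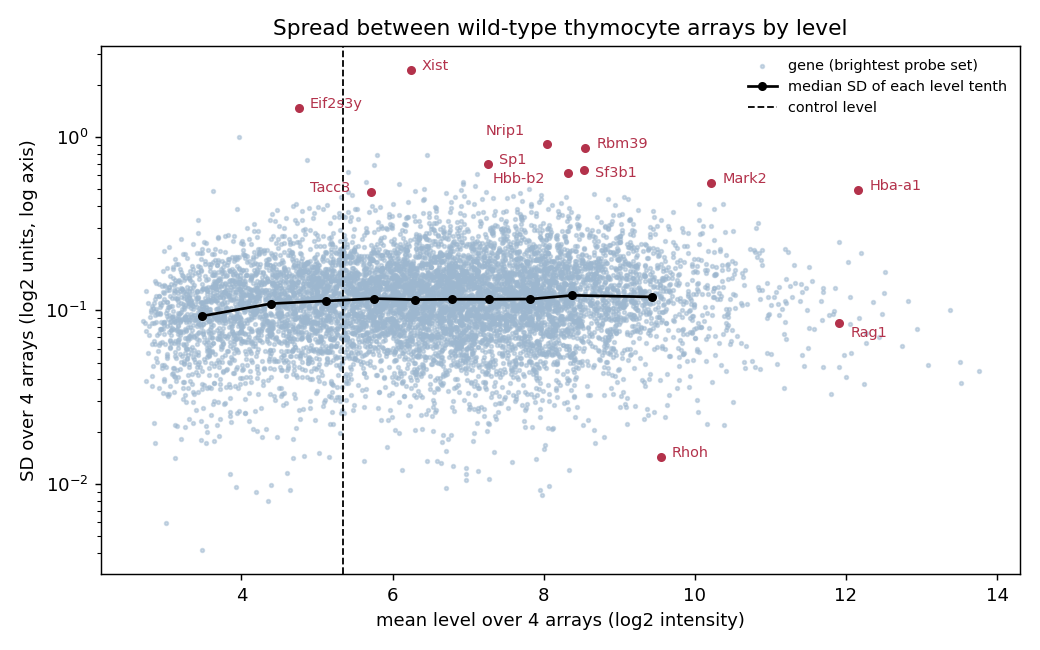
SD over the 4 thymocyte arrays (log axis) against the mean log2 intensity of each of the 8251 genes, with the median SD of each of 10 level bins as a black line and the control level of 5.34 as a dashed line. The median stays between 0.093 and 0.122, while Xist (SD 2.44), Nrip1 (0.91) and Rbm39 (0.86) stand far above it and Rhoh (0.01) far below.

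The most variable gene was Xist, the noncoding RNA that coats the inactive X chromosome. It read 8.21 and 8.36 on arrays 1 and 2, 3.46 on array 3 and 4.95 on array 4, an SD of 2.44. The Y-linked genes ran the other way for array 3. Eif2s3y read 3.52, 3.86, 6.78 and 4.90, Kdm5d read 4.49, 4.29, 4.92 and 4.46, and Uty read 3.35, 3.50, 4.35 and 3.29. Array 3 was the highest for each of these, and among their values only that of Eif2s3y on array 3 was above the control level. Sry, also on the Y chromosome, read 5.36, 5.24, 5.42 and 5.36, with all arrays close to the control level. On array 4, Xist and Eif2s3y both lay between arrays 1 and 2 on the one side and array 3 on the other. The X-linked gene Kdm6a, which escapes inactivation, read 8.36, 8.06, 7.56 and 7.24, and Eif2s3x, another, read 10.07, 10.02, 9.56 and 9.78. Kdm6a was thus lowest on array 4 and Eif2s3x lowest on array 3. The sex of the mice is not among the labels used here. Of the 7 measured sex-linked genes, 4 were above the control level.

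Most other highly variable genes were low on array 4. Of the 25 genes with the largest SD above the control level, 21 were lowest on array 4 and 14 highest on array 1. Over all 5920 genes above the control level, array 4 was the lowest for 34.2% and array 1 the highest for 31.8%. The 25 were picked by SD, and array 4 gave 46.5% of the summed squared deviation, so the choice itself favours genes set apart on array 4. Of the 25, 8 read more than 1 log2 unit lower on array 4 than on every other array: Nrip1, Rbm39, Ggnbp2, Med1, Sp1, Gdap10, Sf3b1 and Mark2. Nrip1, a nuclear receptor corepressor, read 8.60, 8.44, 8.47 and 6.69. Rbm39, a splicing regulator, read 8.98, 8.92, 9.05 and 7.26. Sp1, a factor that binds GC boxes, read 7.70, 7.60, 7.54 and 6.23, and Sf3b1, a core splicing factor, read 8.87, 8.77, 8.93 and 7.57. For each of these, arrays 1 to 3 lay close together. That array 4 did not overlap them follows from how the 8 genes were picked. Highest on array 4 were Raly, an RNA-binding protein, with 6.93, 7.09, 6.51 and 7.96, and Tacc3, a spindle protein, with 5.39, 5.93, 5.25 and 6.29.

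Counted over probe sets above the control level, 28 (0.356%) were at least 2-fold lower on array 4 than the mean of the others and 2 (0.0255%) at least 2-fold higher. For arrays 1 and 2, 1 probe set each (0.0127%) was at least 2-fold higher and 0 (0%) lower, and for array 3 it was 1 (0.0127%) in each direction. At 0.5 log2 units, 192 genes were lower and 58 higher on array 4, 42 were higher and 1 lower on array 1, 14 and 13 on array 3, and 3 and 3 on array 2. Cdk1, the mitotic kinase, read 8.85, 9.11, 8.76 and 9.73, and Birc5, the survivin gene, read 8.07, 8.31, 8.06 and 8.89, both among the genes that were highest on array 4.

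**Figure D4:**
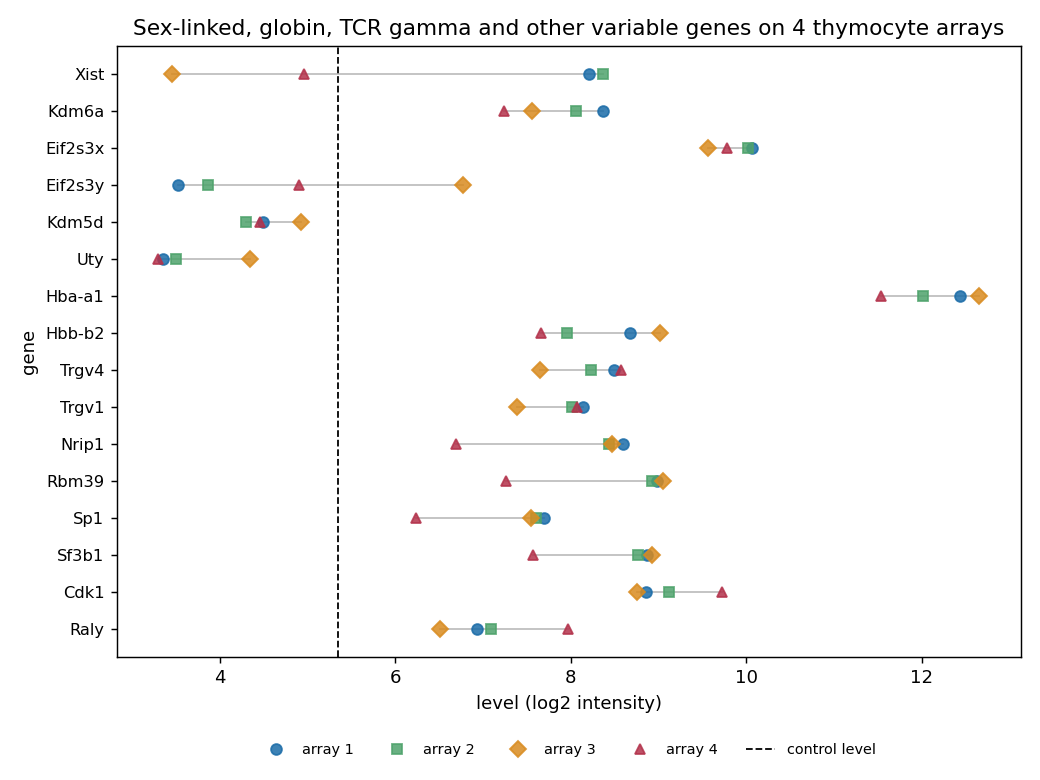
Log2 intensity on each of the 4 thymocyte arrays of sex-linked genes, globins, gamma segments and other genes with a large spread, with the control level of 5.34 as a dashed line. Xist is high on arrays 1 and 2 and Eif2s3y on array 3, and Nrip1, Rbm39, Sp1 and Sf3b1 are low on array 4 alone.

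In several lists the same array was the highest or the lowest for most members. For each gene, an array was set against the mean of the other 3, and the median over the members above the control level was taken. Over all 5920 genes, arrays 1 to 4 were the highest for 31.8%, 14.3%, 20.7% and 33.3%. They were the lowest for 24.7%, 12.6%, 28.6% and 34.2%, and the median differences lay between -0.01 and 0.02 for every array. Without array 4, arrays 1 to 3 were the highest for 40.2%, 28.1% and 31.7% of all genes and the lowest for 30.6%, 25.1% and 44.3%. The counts below stand beside these shares, save those after quantile normalization, which have their own. In the DNA replication list, array 4 was the highest for 27 of 33 members (median difference 0.25) and array 3 the lowest for 27 (-0.26). In the mitosis list, array 4 was the highest for 25 of 31 (0.30) and array 3 the lowest for 20 (-0.23). Without array 4, the order in these lists was array 2 highest for 25 of 33 replication and 25 of 31 mitosis genes, and array 3 lowest for 28 and 20. After quantile normalization array 4 stayed the highest for 27 and 26, while the lowest array of the mitosis list was array 1 for 19 and array 3 for 11. Over all 5920 genes, arrays 1 to 4 were then the highest for 1507, 783, 1399 and 2231. They were then the lowest for 1676, 834, 1519 and 1891.

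In other lists of growth and metabolism array 4 was also the most frequent highest array. Array 4 was the highest for 18 of 23 respiratory chain genes, 14 of 26 proteasome genes and 21 of 27 ribosomal protein genes. Array 3 was the lowest for 18 respiratory chain and 21 proteasome genes. In the ribosomal list arrays 1 and 3 were the lowest for 13 genes each, with median differences of -0.08 on both. After quantile normalization array 4 was the highest for 20, 17 and 14 genes of these lists, and array 3 the lowest for 12, 18 and 8. The most frequent lowest array of the ribosomal list was then array 1, for 16 of 27. Rps18 and Rpl19, whose promoters are shown, were both highest on array 4, at 12.76 against 12.41 to 12.48 and at 12.68 against 12.39 to 12.48.

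Several lists of T-cell genes had array 4 as the most frequent lowest array. It was the lowest for 12 of 16 double-positive genes (median difference -0.20), 20 of 27 transcription factors (-0.19), 11 of 13 receptors (-0.16) and 10 of 22 receptor complex and signalling genes (-0.14). The recombinase and early double-negative lists did not share this, with array 4 the highest for 4 of 9 (0.03, and -0.0099 after quantile normalization) and 5 of 12 (0.06). In the receptor complex and signalling list, array 1 was the highest for 14 of 22 (63.6%, against 31.8% of all genes) and array 4 for 5. Array 1 was the highest for 11 of the 22 after quantile normalization and for 17 without array 4. Of the 13 receptors, array 1 was the highest for 7, and for 5 after quantile normalization. The lists overlap, so their counts are not independent. Rag1, Rag2, Ptcra and Dntt are on both the recombinase and the double-positive list. Satb1, Ccr9 and Bcl2l1 are on the double-positive list and on another, and H2-K1 and H2-D1 on the mature single-positive and class I lists. Regulatory and innate-like T-cell markers had a median difference of -0.02 on array 4. In the interferon response list array 4 was the lowest for 9 of 12 (-0.35) and array 1 the highest for 7 (0.22). Of the genes on both the recombinase and the double-positive list, Rag2 (8.21) and Ptcra (7.89) were lowest on array 4. Rag1 and Dntt were highest on it. For Rag1 the margin was small, at 11.99 against 11.98 on array 2, and its weaker probe set was highest on array 3 (7.59). For the mature single-positive list, array 1 was the highest for 9 of 12 members (0.34) and array 4 the lowest for 8 (-0.17). Without array 4, array 1 was the highest for 10 of the 12 and array 3 the lowest for 7 (58.3%, against 44.3% of all genes). For the double-positive list without array 4, the median differences of the other arrays were between -0.05 and 0.02. Apoptosis and survival genes were lowest on array 4 for 8 of 17.

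Array 1 was the highest for 10 of 14 macrophage markers (median difference 0.26), and array 4 was the lowest for 8 (-0.23). Of 11 dendritic cell and MHC class II markers array 1 was the highest for 6 and array 4 the lowest for 9, with median differences of 0.12 on array 1, 0.13 on array 2 and -0.17 on array 4. For macrophage markers without array 4, array 1 was still the highest for 10 of 14 and array 3 the lowest for 12. The mean level of the macrophage list was 6.76 on array 1, 6.65 on array 2, 6.53 on array 3 and 6.50 on array 4. Granulocyte and mast cell markers were highest on array 4 for 6 of 11 (0.23). Genes of unrelated tissues were highest on array 4 for 5 of 10 (0.17). The part of other cells in the T-cell lists was not tested. Adipose markers were highest on array 4 for the 3 above the control level (0.31), and endothelial markers for 3 of 4 (0.13). Histone and chromatin genes were highest on array 4 for 13 of 23 (0.16). Class I presentation genes were highest on array 1 for 6 of 12 (0.14) and lowest on array 3 for 6 (-0.16). Erythroid genes had median differences of 0.15 on array 3 and -0.10 on array 4. For 12 lists (recombinase, early double-negative, regulatory T, translation factors, actin, glycolysis, immediate-early, B cells, epithelium, fibroblasts, NK and muscle) the median difference farthest from 0 on any array was 0.12 in size, that of glycolysis on array 3.

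**Figure D5:**
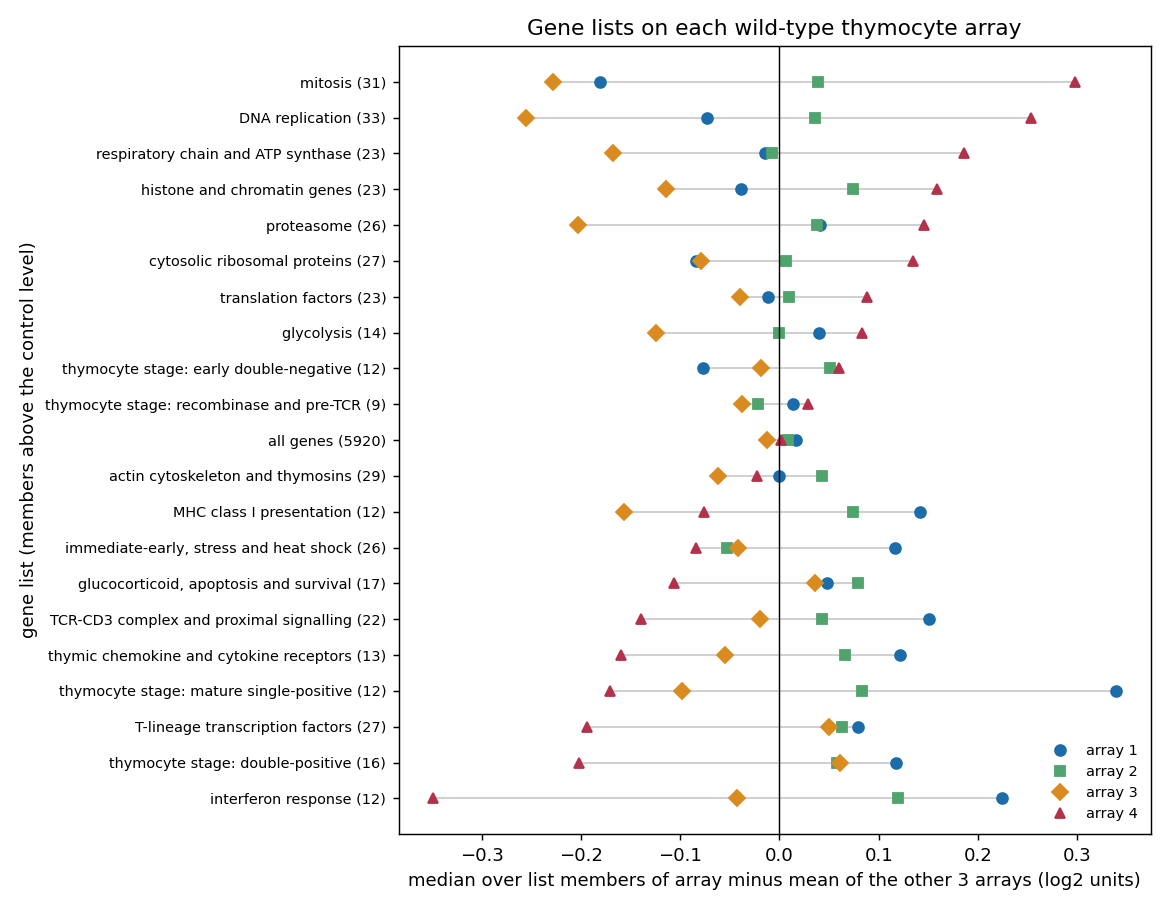
Median difference (log2 units) of each thymocyte array from the mean of the other 3, over the members above the control level of each process list, with their number in brackets and all 5920 genes for reference. Mitosis (0.30) and DNA replication (0.25) lie highest on array 4, interferon response (-0.35) lowest on it, and mature single-positive genes highest on array 1 (0.34).

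The steadiest bright genes came from several processes. Among genes above the control level and in the brightest of the 10 level bins, Rhoh, a GTPase-like protein needed for pre-T-cell receptor signalling, read 9.57, 9.53, 9.55 and 9.54, an SD of 0.01. Rps19 read 10.37 to 10.41, Was, the Wiskott-Aldrich syndrome protein of blood cells, 9.09 to 9.14, and the beta segment Trbv13-2 10.14 to 10.19. Clns1a, Polr2m, Limk1, Flii, Mpp1 and Vamp8 completed the 10 with the smallest SD, each with an SD of 0.02 or 0.03.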

How the data were processed

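Messenger RNA of thymus cell suspensions was measured on Affymetrix arrays, 1 value per probe set and array. Per the submitters' processing notes, the authors used RMA, and the deposited values are linear intensities. Its version, the set of arrays it was run over and what followed were not given in the sources used here. Only the 4 thymocyte arrays were used, grouped by the genotype in the labels. Their intensities, with medians of 68.6 to 70.2, were taken to log2 with no offset and no other scaling. No 2 arrays were identical. There is no depth to an array, and the number of arrays limits the precision.

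By the platform annotation, 10833 probe sets had 1 gene, 396 had several and 1193 had none. A RefSeq table of GRCm38.p6 held 10817 of the first. Probe sets with several or no genes were ranked and not named. The names of 2808 probe sets mark possible cross-hybridization. The work was descriptive, with no p-value and with Dixon's limit used to mark single arrays, in Python 3.11.15 with pandas 2.3.3, numpy 2.4.6 and matplotlib 3.10.9, and was tested on simulated data. The members and the 34 gene lists (758 genes, 600 measured) were chosen with earlier results of these data known.

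Named genes were the 30 brightest, the 25 with the largest SD above the control level, the 10 with the smallest SD in the brightest of 10 level bins, the 4 brightest and the dimmest member of each process list, up to 5 members of each list of other cells, the 4 markers, the 4 genes on each side of the control level and the 6 genes with the widest gaps between probe sets. Other list members were named after their values were seen, as were Hbb-b2 beside the erythroid list, the gamma segments and the promoters shown. Promoters were matched for 6572 of 8251 genes (79.7%). Motif shares by level were computed, found to rest on under 80% of the genes, and are not reported. Alternatives covered leaving out each array, the normalization, the control level, cross-hybridizing probe sets, several probe sets of a gene, the filter on dim probe sets and the measure of spread.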

Additional observations from a re-analysis of the deposited data

Results flagged for a closer look

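Of 218 named genes, 14 (6.42%) had 1 array so far from the others that its gap to the nearest, divided by the whole range, passed Dixon's limit for 4 values. Chance alone passes about 1 in 20 such groups, but the named genes include 25 chosen for a large SD, among them Mark2, Rbm39, Nrip1, Sp1, Sf3b1 and Ggnbp2, so the share cannot be set against that rate. The array that stood apart was array 4 for 11 genes, array 3 for 2, array 1 for 1 and array 2 for none.

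Array 4 was low for Mark2, with a gap of 0.96 of the range (9.41 against 10.46 to 10.51), for Rbm39 with 0.929 (7.26 against 8.92 to 9.05) and for Nrip1 with 0.918 (6.69 against 8.44 to 8.60). It was also low for Sp1 with 0.897 (6.23 against 7.54 to 7.70), for Sf3b1 with 0.882 (7.57 against 8.77 to 8.93) and for Ggnbp2 with 0.836 (4.62 against 6.03 to 6.31). Mx1 was lower on array 4 with 0.848 (3.65 against 4.09 to 4.17), all below the control level.

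Array 4 was high for Jund with 0.886 (12.06 against 11.94 to 11.96), for Thy1 with 0.86 (12.30 against 12.11 to 12.14), for Pecam1, an endothelial adhesion molecule, with 0.846 (7.17 against 6.93 to 6.97) and for Cfl1, an actin-severing protein, with 0.84 (12.05 against 11.75 to 11.80). Array 3 was high for Col1a1, a collagen chain, with 0.913 (7.24 against 7.02 to 7.04) and low for Pkm with 0.857 (10.87 against 10.98 to 11.00). Array 1 was low for Cela1, a pancreatic elastase gene, with 0.87 (6.84 against 7.09 to 7.12).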

How the results depend on the processing

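The counts above the control level depended on where that level was set. With the highest non-mouse control in its place, 5125 probe sets were above it, 4585 of all on every array, and with antisense controls added 4227 and 3714, and 3374 genes. Leaving out each array in turn gave 7782 to 7994 probe sets, 7388 to 7774 on every array, 5863 to 5994 genes and a median SD of 0.0925 to 0.130. The level of Rag1 was 9.65 as the mean of its probe sets. With that mean the levels of 71 named genes, Rag1 included, moved by more than their spread between arrays, and 168 other levels and list counts did not. The counts of members above the control level moved for 12 lists with the highest control and for 15 with the antisense controls. Without cross-hybridizing probe sets, 19 of the 30 brightest genes were shared. Of the 25 most variable genes, 8 were shared without array 4 (8 to 23 over the 4 arrays left out), 14 in the upper part of the levels, and, chosen after seeing the data, 14 with the highest control and 11 with the antisense controls. Without array 4, the genes that came in included Trgv1, Trgv4, Apoe, C1qb, C1qc and S100a9. Of 105 list medians recomputed without array 4, 5 moved by more than their spread between arrays. Other scalings of the arrays, also chosen after seeing the data, turned the sign of 23 list medians, all at most 0.06 in size. No paired analysis was possible because there is 1 group and no test. The range and the coefficient of variation were tried for the most variable genes (22 and 21 shared), and not set against the median SD, since their units differ. Intensity near the control level limits what can be said of dim genes.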

Other observations

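The hybridisation controls, which are added in fixed amounts before the array is exposed, were brightest on array 2. The probe set for the middle of BioB read 7.62 on array 2 and 7.06 to 7.25 on the others. The 3' control of Tfrc, the transferrin receptor, exceeded its 5' control by 1.45, 1.74, 1.68 and 1.61 log2 units on arrays 1 to 4.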
